A study of Mus musculus with 2 samples.

Results

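The heat shock protein (HSP), J protein (DNAJ) and chaperonin (CCT) genes of mouse CMT167R cells were followed in a PKCi-treated and an untreated library. Their 92 genes, of 54532 in the table, were chosen by name, as protein-coding genes called Hsp90, Hspa, Hspb, Hspd, Hspe, Hsph, Dnaja, Dnajb, Dnajc, Cct or Bag. Earlier results of these data were known when the choice was made. The choice also took in Tcp1, Hsf1, Hsf2, Cryab, Fkbp4 and Stip1, and left out Hspbp1 and Hspbap1. Counts were scaled to a library total of 1000000 (CPM). Of the 92, 73 reached 1 CPM in either library and were compared, and 19 did not.

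CMT167R cells are, per the labels, resistant to anti-PD1, an immune checkpoint antibody, and CMT167 is known as a lung carcinoma line of the mouse. For the PKCi library the cells had received PKCi at 50 nM for 24 h, and for the CON library they were untreated. The labels give no other name for the compound. Each group was 1 library of 1 culture of the same line, so no difference below has a replicate check and no p-value is given. The question the design poses is how gene expression in the resistant cells differed after the compound.

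The PKCi library held 16071153 counts and the CON library 16090186, so that 1 CPM stood for 16.1 counts in each. Of 7 lung epithelial markers, 5 reached 1 CPM, with the keratin genes Krt8 and Krt18 at 1182 and 765 CPM with PKCi, against 933 and 643 CPM in CON. Krt19 was at 71.1 CPM with PKCi and 59.7 CPM in CON. Epcam and Cdh1 were low, at 6.28 and 3.36 CPM with PKCi and 3.48 and 2.92 CPM in CON. Nkx2-1 and Sftpc, which define the lung lineage and its alveolar secretory cells, were at 0 in both libraries. A protocol in the labels speaks of retinas; 9 of 12 retina markers were at 0 in both libraries, and the 12 together had 6 counts with PKCi and 4 in CON. Of 5 leukocyte markers 3 were at 0 in both, the list summing to 6.66 CPM with PKCi and 10.6 CPM in CON, and 5 fibroblast markers summed to 11.5 CPM with PKCi and 11.9 CPM in CON. Of the fibroblast markers, Pdgfra was at 6.04 CPM with PKCi and 2.67 CPM in CON and Dcn had 17 counts with PKCi and 1 in CON, while Col1a1 was at 4.36 CPM with PKCi and 8.89 CPM in CON. The part of these low markers in the results below was not tested.

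Chaperones bind proteins that are not yet folded and keep them from clumping. HSP70 proteins grip short stretches of a client in a cycle driven by ATP, J proteins (HSP40) bring clients to HSP70 and start ATP hydrolysis, and nucleotide exchange factors such as the HSP110 and BAG proteins reset the cycle. HSP90 completes the folding of kinases and hormone receptors, while the chaperonins, HSP60 in mitochondria and the CCT ring in the cytosol, enclose a client in a chamber. In stressed cells the transcription factor HSF1 binds heat shock elements, runs of GAA and TTC blocks, before many of these genes, and tumour cells often depend on the same system.

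Promoter stretches are shown for genes that share a recognisable element and whose levels are compared below. The sequences are from RefSeq on GRCm38.p6, whose table had a promoter window of 250 bases before and 50 bases after the start site for 74 of the 92 genes. Overlapping searches were made for the heat shock element on both strands. The 13-letter form is GAA, TTC and GAA, or its reverse complement TTC, GAA and TTC, with 2 bases between neighbouring blocks. The 8-letter form is GAANNTTC or TTCNNGAA, each its own reverse complement. The longer form was in windows of 4 chaperone genes, Hspd1, Hspe1, Hsph1 and Dnajb6, and of 179 (0.662%) of all 27025 genes with a window. The shorter form, which every 13-letter match contains, was in 21 of the 74 chaperone genes and in 17.0% of all genes.

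The mitochondrial chaperonin genes Hspd1 and Hspe1 lie head to head. The stretch shown is the one before Hspe1, chr1:55087898-55088147 on the plus strand. Its capitals mark 18 bases (chr1:55088059-55088076) in which both 13-letter forms overlap. They begin 89 bases before the listed start of Hspe1 and 144 bases before 1 of the listed starts of Hspd1 on the other strand. The window of the other listed start of Hspd1 overlaps that of Hspe1 by 4 bases and does not hold them. Seen from that start, they lie after it, within the table's span of Hspd1.
Hspe1: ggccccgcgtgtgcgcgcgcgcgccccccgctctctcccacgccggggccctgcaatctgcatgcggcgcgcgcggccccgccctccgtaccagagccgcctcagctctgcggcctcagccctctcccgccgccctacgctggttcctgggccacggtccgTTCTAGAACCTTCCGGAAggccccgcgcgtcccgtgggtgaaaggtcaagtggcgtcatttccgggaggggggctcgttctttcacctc
The J protein gene Dnajb6 has a single 13-letter match, in capitals, on chr5:29735832-29735884 of the plus strand.
Dnajb6: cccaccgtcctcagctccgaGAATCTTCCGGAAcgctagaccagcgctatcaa
In Hsph1 the match lay after the start sites, from base 149636288 to base 149636300 of chromosome 5, and is not shown.

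The ER stress element, CCAAT and CCACG with 9 bases between them, was searched on both strands as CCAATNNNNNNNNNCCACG. It was in windows of 3 chaperone genes, Hspa5, Hsp90b1 and Dnajc3, all of them genes of endoplasmic reticulum (ER) proteins, and of 37 (0.137%) of all 27025 genes. This search was added after the values were seen. The stretches are chr2:34771840-34772089 (plus strand) for Hspa5, chr10:86705513-86705676 (minus strand) for Hsp90b1 and chr14:118937807-118937865 (plus strand) for Dnajc3. Capitals mark the element, which stands in Hsp90b1 once on each strand.
Hspa5: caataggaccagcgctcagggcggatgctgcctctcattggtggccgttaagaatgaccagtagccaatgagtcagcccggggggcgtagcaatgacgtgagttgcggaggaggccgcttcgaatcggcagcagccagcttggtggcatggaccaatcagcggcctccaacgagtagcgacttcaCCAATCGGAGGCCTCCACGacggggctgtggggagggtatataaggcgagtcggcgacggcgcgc
Hsp90b1: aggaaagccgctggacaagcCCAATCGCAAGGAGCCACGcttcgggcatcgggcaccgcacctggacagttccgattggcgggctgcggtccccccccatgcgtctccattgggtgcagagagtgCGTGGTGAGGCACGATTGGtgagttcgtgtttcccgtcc
Dnajc3: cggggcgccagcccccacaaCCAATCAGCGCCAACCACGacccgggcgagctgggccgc
A match describes the letters of the window and does not show that a factor binds there.

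Messages of the chaperone genes took a smaller share of the PKCi library. They summed to 19606 CPM (1.96% of counts) with PKCi and 27258 CPM (2.73%) in CON, which is 1.39-fold lower with PKCi (95% interval 1.38 to 1.40). The interval, like all those below, is an exact binomial (Clopper-Pearson) interval on counts and covers counting error only. In bulk RNA, fewer cells that express a gene and less RNA per cell cannot be told apart. Of the 73 genes compared, 50 had a log2 ratio below 0 and 23 above, where the log2 ratio is log2((PKCi + 1)/(CON + 1)) in CPM. Among all 12273 genes that reached 1 CPM in either library, 50.8% were below 0. The median log2 ratio was −0.36 for the chaperone genes and −0.01 for all genes.

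The sizes were mostly moderate. At least 2-fold lower on the log2 scale were 6 chaperone genes, Hspd1, Hspe1, Fkbp4, Bag2, Hspb6 and Cryab, against 5.13% of all genes. At least 2-fold higher were 2, Dnaja4 and Dnajc28, against 6.53% of all genes. In the table's mouse coordinates (GRCm38), Hspd1 (ENSMUSG00000025980) spans chr1:55077835-55088243 on the minus strand and Hspe1 (ENSMUSG00000073676) chr1:55088132-55091307 on the plus strand. Fkbp4 (ENSMUSG00000030357) spans chr6:128429735-128438677, Bag2 (ENSMUSG00000042215) chr1:33745484-33757795, Hspb6 (ENSMUSG00000036854) chr7:30552178-30555443 and Cryab (ENSMUSG00000032060) chr9:50751325-50756636. The higher genes are Dnaja4 (ENSMUSG00000032285) at chr9:54698873-54716315 and Dnajc28 (ENSMUSG00000039763) at chr16:91614254-91619026.

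A size of 1.5-fold was reached by 25 lower genes, where 16.7% of all genes were that much lower, and by 6 higher ones, where 16.8% of all genes were that much higher. Among the 31 chaperone genes whose mean over both libraries was 100 CPM or more, 27 were below 0 and 14 were lower by 1.5-fold or more. Past 2-fold, 3 of the 31 were lower and 0 higher. Of all 2391 genes as abundant, 55.9% were below 0, 16.7% were 1.5-fold lower, 4.68% were 2-fold lower and 5.40% were 2-fold higher.

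**Figure D1:**
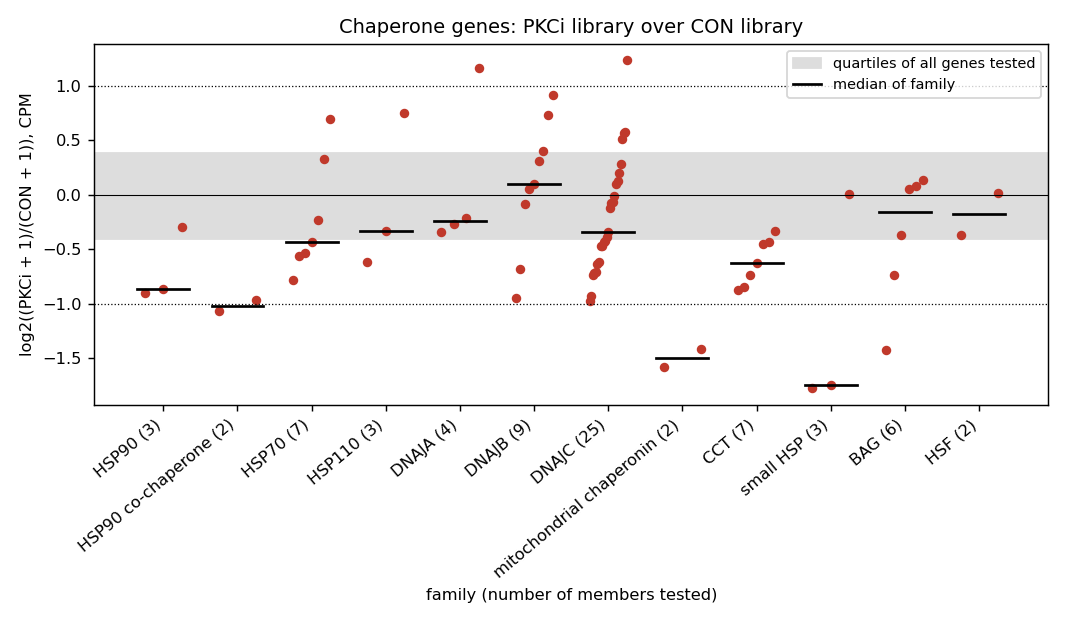
Each point is a chaperone gene compared, placed by family on the horizontal axis and by log2((PKCi + 1)/(CON + 1)) in CPM on the vertical axis, with black bars at family medians, grey for the quartiles of all 12273 genes (−0.41 to 0.39) and dotted lines at 2-fold. The CCT, HSP90 and mitochondrial chaperonin genes all lie below 0, and the DNAJB genes spread on both sides with a median of 0.10.

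All 3 HSP90 genes of the set were lower in the PKCi library, together 1.43-fold (95% interval 1.42 to 1.45). Hsp90aa1, the stress-inducible cytosolic form, was at 1024 CPM with PKCi and 1915 CPM in CON (1.87-fold lower, 95% interval 1.84 to 1.91). Hsp90ab1, the constitutive cytosolic form, was at 3540 CPM with PKCi and 4345 CPM in CON (1.23-fold lower, 95% interval 1.21 to 1.24). The inducible form was lower by more than the constitutive one. On a scale that divides counts by gene length (TPM), the level of Hsp90aa1 was 0.221 times that of Hsp90ab1 with PKCi and 0.336 times in CON. Hsp90b1 (GRP94), the ER form, was at 733 CPM with PKCi and 1334 CPM in CON (1.82-fold lower, 95% interval 1.78 to 1.86). The mitochondrial form, Trap1, fell outside the naming rule and is counted below among folding factors of mitochondria. It was at 106 CPM with PKCi and 116 CPM in CON (1.10-fold lower, 95% interval 1.03 to 1.17).

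The HSP90 co-chaperone genes of the set were lower in the PKCi library too. Fkbp4 encodes FKBP52, an immunophilin of steroid receptor complexes, and was at 250 CPM with PKCi and 523 CPM in CON (2.10-fold lower, 95% interval 2.02 to 2.18). Stip1 encodes HOP, which hands clients from HSP70 to HSP90, and was at 205 CPM with PKCi and 402 CPM in CON (1.96-fold lower, 95% interval 1.88 to 2.05). The interval of Fkbp4 lay beyond those of the HSP90 genes, while that of Stip1 overlapped that of Hsp90aa1. With a log2 ratio of −0.97, Stip1 stood just inside the 2-fold line that Fkbp4, at −1.06, was past. Of 18 further co-chaperones of HSP90, all compared, 14 were below 0, against 50.8% of all genes, and 4 above. A size of 1.5-fold was reached by 8 that were lower, against 16.7% of all genes, and by 0 that were higher, against 16.8% of all genes. Their median log2 ratio was −0.41. Ppid, a cyclophilin relative of Fkbp4, was at 78.6 CPM with PKCi and 170 CPM in CON, a log2 ratio of −1.11. It was the 1 of the 18 past 2-fold, a share near the 5.13% of all genes. Ahsa1, which activates the HSP90 ATPase, had a log2 ratio of −0.99, the phosphatase Ppp5c −0.90 and the immunophilin Fkbp5 −0.89.

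Of 11 HSP70 genes 7 were compared, 5 below 0, against 50.8% of all genes, and 2 above. Hspa8 (HSC70), the constitutive cytosolic form, was at 2503 CPM with PKCi and 2939 CPM in CON (1.17-fold lower, 95% interval 1.16 to 1.19). Hspa1b, the strongly heat-inducible form, ran the other way, at 76.7 CPM with PKCi and 47.0 CPM in CON (1.63-fold higher, 95% interval 1.49 to 1.79). Its near-identical neighbour Hspa1a was listed with 1 count with PKCi and 0 in CON, and reads of this pair could have been assigned to either copy. Hspa2, best known from testis, was at 5.16 CPM with PKCi and 3.92 CPM in CON (83 and 63 counts), and its 95% interval of 0.939- to 1.86-fold spanned 1.

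The organelle forms of HSP70 were lower. Hspa5 (BiP), the HSP70 of the ER, was at 1303 CPM with PKCi and 2237 CPM in CON (1.72-fold lower, 95% interval 1.69 to 1.75). Hspa9 (mortalin), the HSP70 of mitochondria and part of the import motor, was at 771 CPM with PKCi and 1038 CPM in CON (1.35-fold lower, 95% interval 1.32 to 1.38). Hspa13, a microsomal relative, was at 82.0 CPM with PKCi and 122 CPM in CON. Hspa14, which works at the ribosome on new chains, was at 39.7 CPM with PKCi and 58.1 CPM in CON (1.46-fold lower, 95% interval 1.32 to 1.62). Its partner there, the J protein gene Dnajc2, was 1.64-fold lower (63.5 CPM with PKCi and 104 CPM in CON, 95% interval 1.52 to 1.78).

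The HSP110 genes, exchange factors for HSP70, went in different directions. Hspa4 (APG-2) was at 444 CPM with PKCi and 681 CPM in CON (1.53-fold lower, 95% interval 1.49 to 1.58). Its close relative Hspa4l was at 468 CPM with PKCi and 277 CPM in CON (1.69-fold higher, 95% interval 1.63 to 1.75). Per gene length, the level of Hspa4 was 2.02 times that of Hspa4l with PKCi and 5.23 times in CON. These values rest on deposited lengths of 5528 and 11792 bases, and in CPM the level was 0.948 times with PKCi and 2.45 times in CON. Hsph1 (HSP105), whose window holds a 13-letter heat shock element, was at 230 CPM with PKCi and 289 CPM in CON (1.26-fold lower, 95% interval 1.20 to 1.31).

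Among the BAG genes, exchange factors that carry a BAG domain, Bag2 stood apart. Bag2, which restrains the ubiquitin ligase CHIP, was at 22.8 CPM with PKCi and 62.8 CPM in CON (2.75-fold lower, 95% interval 2.44 to 3.11). Bag4, which binds TNF receptor tails, was 1.70-fold lower (17.7 CPM with PKCi and 30.1 CPM in CON) and Bag5 1.30-fold lower. Bag3, which routes clients to autophagy and is a classical heat shock gene, was at 72.2 CPM with PKCi and 69.4 CPM in CON, and its interval of 0.958- to 1.13-fold spanned 1. Bag1 (1.06-fold higher, 95% interval 0.995 to 1.13) and Bag6, a handler of tail-anchored proteins (1.10-fold higher, 95% interval 1.06 to 1.14), were close to level. Of 9 other genes listed as cofactors of HSP70 all 9 were below 0, against 50.8% of all genes, with a median of −0.24. The list includes Hspbap1 (log2 ratio −0.16), which is named for binding the small heat shock protein HSPB1 and not HSP70. At least 1.5-fold lower were 2 of the 9, a share near the 16.7% of all genes. They were led by Hyou1, the HSP110 relative of the ER (−0.75), the exchange factor Hspbp1 (−0.61) and the mitochondrial exchange factors Grpel1 (−0.36) and Grpel2 (−0.36).

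**Figure D2:**
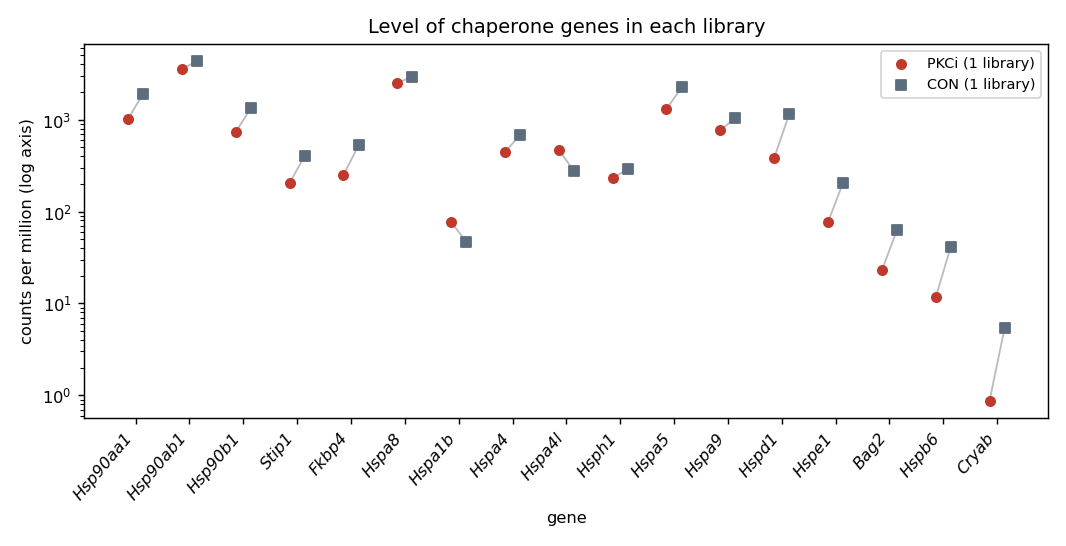
CPM on a log axis for 17 chaperone genes in the PKCi library (red circles, left) and the CON library (grey squares, right), 1 library each, with a line joining the values of a gene. Hspa1b and Hspa4l are the genes drawn that are higher with PKCi, at 76.7 against 47.0 CPM and 468 against 277 CPM.

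The mitochondrial chaperonin genes had the lowest log2 ratios of the 31 chaperone genes with a mean of 100 CPM or more. Hspd1 encodes HSP60, whose rings fold proteins imported into the matrix, and was at 383 CPM with PKCi and 1147 CPM in CON (2.99-fold lower, 95% interval 2.91 to 3.08). Hspe1 encodes HSP10, the lid of that chamber, and was at 76.7 CPM with PKCi and 207 CPM in CON (2.69-fold lower, 95% interval 2.52 to 2.88). The level of Hspd1 per gene length was 2.79 times that of Hspe1 with PKCi and 3.10 times in CON, a smaller difference than that of either gene. Hspd1 and Hspe1 both have the 18-base run of heat shock blocks in a promoter window. The other genes with a 13-letter match, Hsph1 and Dnajb6, had log2 ratios of −0.33 and 0.05, against −1.58 for Hspd1 and −1.42 for Hspe1.

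The table's spans of Hspd1 and Hspe1 overlap by 112 bases on opposite strands, and no source used here gives the strand setting of the counting. The processed pseudogene Hspd1-ps3 on chromosome 11 had 180 counts with PKCi and 493 in CON (2.74-fold lower, 95% interval 2.30 to 3.26), a ratio near that of Hspd1. Reads of these near-identical copies cannot be told apart here. Of 19 pseudogenes whose description names a heat shock protein, chaperonin or J protein, 3 had any count.

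The other chaperone genes assigned to mitochondria were lower by less. The assignment was made by hand and may be incomplete. Dnajc28 and Dnajc4, left outside it, had log2 ratios of 1.24 and 0.10. The 6 genes assigned to mitochondria besides Hspd1 and Hspe1 were Hspa9, Dnaja3, Dnajc11, Dnajc15, Dnajc19 and Dnajc30. All 6 had log2 ratios below 0, against 50.8% of all genes, with a median of −0.54. Their summed level was 930 CPM with PKCi and 1270 CPM in CON (1.37-fold lower, 95% interval 1.34 to 1.39). The 5 J proteins among them summed to 159 CPM with PKCi and 232 CPM in CON (1.46-fold lower). With Hspd1 and Hspe1 the median of the 8 genes was −0.63 and their sum 1.89-fold lower. Dnajc19, the J protein of the import motor, had 11.3 CPM with PKCi and 22.3 CPM in CON (1.98-fold lower, 95% interval 1.65 to 2.38). Dnajc15, its paralog, was 1.56-fold lower (19.3 CPM with PKCi and 30.1 CPM in CON), and Dnajc11, which binds the cristae-organising complex, was 1.57-fold lower (62.3 CPM with PKCi and 97.5 CPM in CON). Dnaja3 (TID1), of the matrix, was 1.21-fold lower and Dnajc30 1.43-fold lower. Of 13 further proteases and folding factors of mitochondria 11 had ratios below 0, against 50.8% of all genes, and 2 had ratios above it. Their median log2 ratio was −0.28. Past 2-fold, where 5.13% of all genes were that much lower, were 2 of the 13. They were the prohibitin gene Phb (116 CPM with PKCi and 241 CPM in CON, log2 ratio −1.05) and the protease gene Htra2 (37.0 CPM with PKCi and 75.6 CPM in CON, −1.01). Phb2 had a log2 ratio of −0.65, and the protease gene Spg7 was higher, at 0.59.

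The summed level of the chaperone genes assigned to the ER was lower, and most of that sum was Hspa5 and Hsp90b1. The assignment was made by hand and may be incomplete. Left outside it were Dnajc14, Dnajc16, Dnajc18 and Dnajc25, with log2 ratios of 0.51, 0.57, 0.29 and −0.43. Of 10 genes assigned to the ER 8 were below 0, against 50.8% of all genes, and 2 above. Their median log2 ratio was −0.34, near the −0.36 of all the chaperone genes. The 10 genes summed to 2947 CPM with PKCi and 4712 CPM in CON (1.60-fold lower, 95% interval 1.58 to 1.62). Without Hspa5 and Hsp90b1, the other 8 summed to 912 CPM with PKCi and 1141 CPM in CON (1.25-fold lower, 95% interval 1.22 to 1.28), with a median of −0.10. The 7 J proteins assigned to the ER had a median of −0.09 and a summed level 1.23-fold lower. Besides Hspa5 and Hsp90b1, Dnajb11 (ERdj3), which binds BiP clients, was at 87.4 CPM with PKCi and 169 CPM in CON (1.94-fold lower, 95% interval 1.82 to 2.07). Dnajc3 (P58IPK), a BiP partner that also restrains the stress kinase PERK, was at 152 CPM with PKCi and 254 CPM in CON (1.67-fold lower, 95% interval 1.59 to 1.75). Dnajc10 (ERdj5), a disulfide reductase, was at 384 CPM with PKCi and 418 CPM in CON (1.09-fold lower). The 3 genes with an ER stress element in their windows, Hspa5, Hsp90b1 and Dnajc3, had log2 ratios of −0.78, −0.86 and −0.73.

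Dnajb9 (ERdj4), a J protein known as a target of the unfolded protein response, went against most of the genes assigned to the ER. It was at 38.5 CPM with PKCi and 22.7 CPM in CON (1.69-fold higher, 95% interval 1.48 to 1.93). Dnajb12, a J protein of the ER membrane, was also higher, at 75.5 CPM with PKCi and 56.9 CPM in CON (1.33-fold, 95% interval 1.22 to 1.45). Its paralog Dnajb14 (0.941-fold, 95% interval 0.867 to 1.02) and Dnajc1 (0.952-fold, 95% interval 0.823 to 1.10) had intervals that spanned 1.

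J protein genes as a whole were spread around a small shift. Of 45, 38 were compared, 23 below 0, against 50.8% of all genes, and 15 above, with a median of −0.10. At least 1.5-fold lower were 9 of the 38, against 16.7% of all genes, and 4 were higher by that much, against 16.8% of all genes. The DNAJB genes had a median of 0.10 and the DNAJC genes one of −0.34. The cytosolic J protein genes with the most counts, Dnaja1 and Dnaja2, which serve HSC70, were at 225 and 210 CPM with PKCi, against 262 and 267 CPM in CON (1.16-fold and 1.27-fold lower).

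The stress-inducible J protein gene Dnajb1 was at 94.3 CPM with PKCi and 87.8 CPM in CON, and its interval of 0.998- to 1.15-fold spanned 1. Dnajb6, which holds back protein aggregation, was at 77.5 CPM with PKCi and 74.8 CPM in CON, again within counting error. The endosomal J protein gene Dnajc13 (RME-8) was level, at 165 CPM with PKCi and 166 CPM in CON, and Dnajc7, which binds both HSP70 and HSP90, was at 93.8 CPM with PKCi and 98.9 CPM in CON.

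Dnajb2, a J protein with ubiquitin-interacting motifs best known in neurons, had the highest ratio of the J protein genes above 10 CPM in both libraries, at 82.8 CPM with PKCi and 43.3 CPM in CON (1.91-fold higher, 95% interval 1.75 to 2.10). Dnaja4 had 40 counts with PKCi and 9 in CON (4.45-fold higher, 95% interval 2.13 to 10.4), and reached 1 CPM in the PKCi library alone. Dnajc28 had 97 counts with PKCi and 32 in CON (3.03-fold higher, 95% interval 2.02 to 4.68). Both of the J protein genes past 2-fold were thus expressed at low levels. Dnajc14 and Dnajc16 were 1.43- and 1.49-fold higher, and Dnajc22 was at 93.0 CPM with PKCi and 62.1 CPM in CON.

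Among the remaining J protein genes at least 1.5-fold lower were Dnajc9, Dnajc17 and Dnajb4. Dnajc9, a chaperone of histones H3 and H4, was at 35.9 CPM with PKCi and 71.7 CPM in CON (95% interval 1.81- to 2.21-fold lower), and its log2 ratio of −0.98 fell just short of the 2-fold line. Dnajc17, found with the splicing machinery, had 55 counts with PKCi and 101 in CON (1.83-fold lower, 95% interval 1.31 to 2.60). Smaller differences were those of Dnajc8, also of the spliceosome, at 1.27-fold lower, Dnajc21, of ribosome maturation, at 1.40-fold lower, and Dnajc24, of diphthamide synthesis, at 1.34-fold lower. Dnajb4, a cytosolic relative of Dnajb1, was 1.64-fold lower (14.4 CPM with PKCi and 23.7 CPM in CON).

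**Figure D3:**
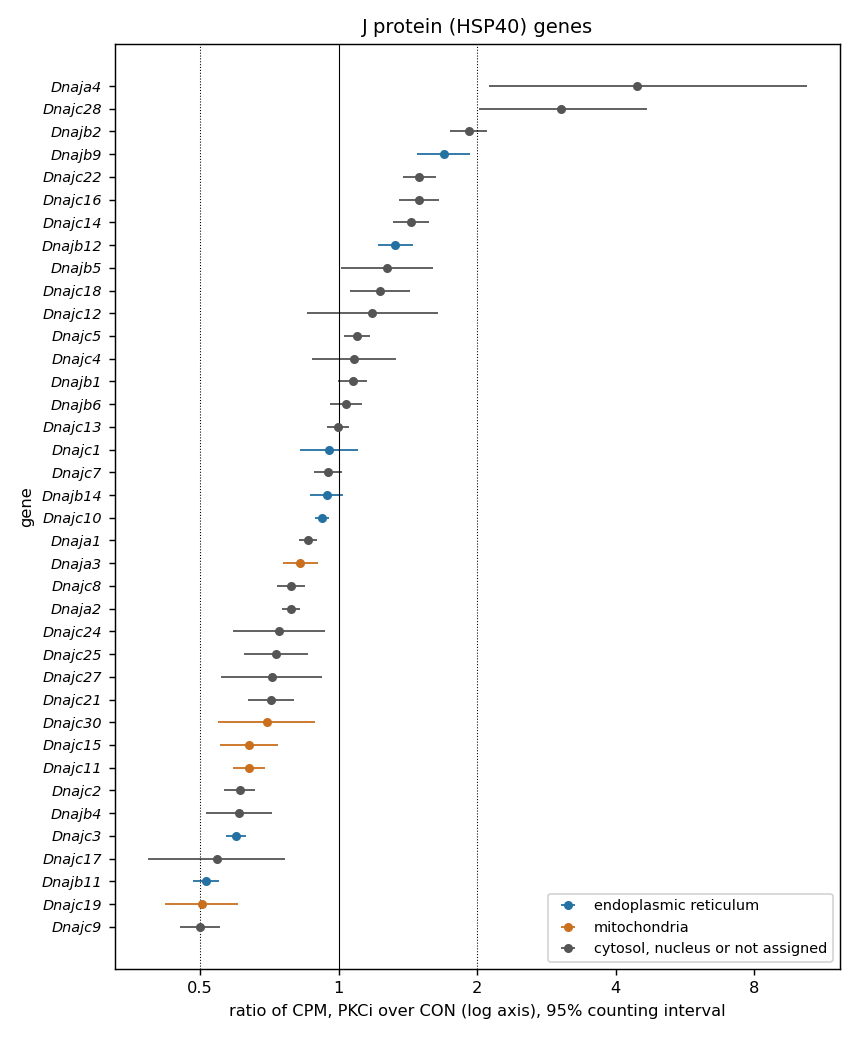
Ratio of CPM, PKCi over CON, on a log axis for the 38 J protein genes compared, with 95% counting intervals and dotted lines at 2-fold in either direction, and colours for genes assigned to the ER, to mitochondria or to neither. The 5 genes assigned to mitochondria lie below 1. Those assigned to the ER run from Dnajb11 (1.94-fold lower) to Dnajb9 (1.69-fold higher).

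The CCT ring, which folds actin and tubulin, was lower in every subunit. The ring has 8 different subunits, of which 7 were in the gene set, and the table lists the gene of the other, Cct6a, as a processed transcript, so that the naming rule left it out. Cct3 was at 379 CPM with PKCi and 695 CPM in CON (1.83-fold lower, 95% interval 1.78 to 1.89). Cct8 was at 241 CPM with PKCi and 434 CPM in CON (1.80-fold lower, 95% interval 1.73 to 1.87). Cct7 was at 407 CPM with PKCi and 678 CPM in CON (1.67-fold lower), and Cct5 at 425 CPM with PKCi and 655 CPM in CON (1.54-fold lower). Their ratios were further from 1 than those of Tcp1, Cct4 and Cct2.

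Tcp1, the subunit that gave the complex its older name, was at 487 CPM with PKCi and 669 CPM in CON (1.37-fold lower, 95% interval 1.33 to 1.41). Cct4 was at 349 CPM with PKCi and 472 CPM in CON (1.35-fold lower, 95% interval 1.31 to 1.40), within the interval of Tcp1. Cct2 had the ratio nearest to 1, at 1824 CPM with PKCi and 2303 CPM in CON (1.26-fold lower, 95% interval 1.24 to 1.28). The median log2 ratio of the 7 was −0.62, 0 were past 2-fold, and 4 were at least 1.5-fold lower, against 16.7% of all genes. Cct6a was at 219 CPM with PKCi and 403 CPM in CON (1.84-fold lower, 95% interval 1.76 to 1.92), and with it the median was −0.68.

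Levels of the ring subunits were unequal although the ring holds each once. Per gene length, Cct2 was at 2330 TPM with PKCi and 2925 TPM in CON, 8.85 times and 7.34 times the median of the 8 subunits. Cct5 was next, at 502 TPM with PKCi and 769 TPM in CON, and the other 6 lay between 194 and 316 TPM with PKCi and between 325 and 456 TPM in CON. The deposited lengths ran from 2557 bases (Cct2) to 6778 bases (Cct7), which widens the gap of Cct2 in TPM. In CPM, Cct2 was at 1824 with PKCi and 2303 in CON. The other subunits lay between 219 and 487 CPM with PKCi and between 403 and 695 CPM in CON. Cct6b, the testis form of Cct6a, had 6 counts with PKCi and 0 in CON, and Cct8l1 had 0 in both libraries.

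**Figure D4:**
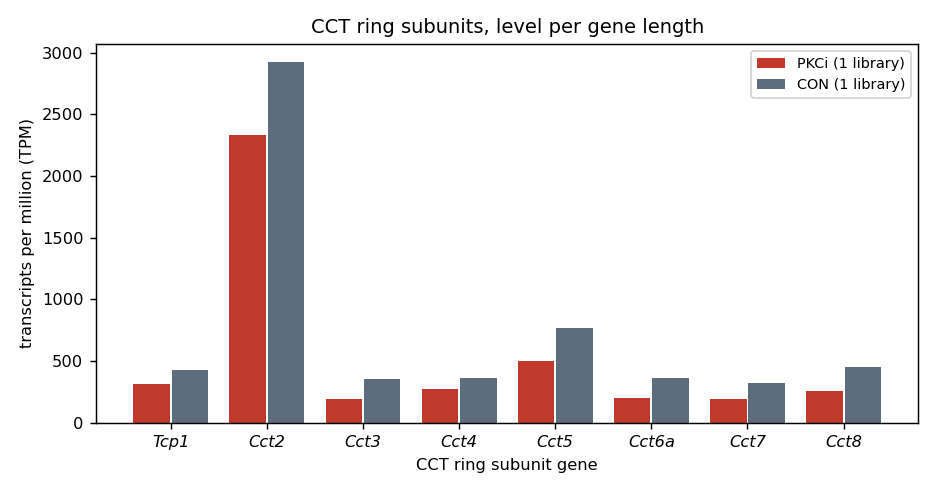
Level of the 8 CCT ring subunit genes in TPM (vertical axis, starting at 0) in the PKCi library (red, left) and the CON library (grey, right), 1 library each. Cct2 stands above the others, at 2330 TPM with PKCi and 2925 TPM in CON, and each subunit is lower with PKCi.

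Genes that feed or use the ring did not move as a block. Of 16 genes of prefoldin, of CCT cofactors and of tubulin folding, 9 were below 0 and 7 above, 0 were 1.5-fold lower or higher, and the median was −0.10. Their lowest log2 ratios were those of the prefoldin subunits Pfdn2 (−0.53), Pfdn4 (−0.51) and Pfdn1 (−0.38) and of the cofactor Pdcl3 (−0.32). Of 14 genes of CCT substrates 13 were compared, with 8 below 0, against 50.8% of all genes, and 5 above. The 9 tubulin genes among these went both ways, 5 below 0 and 4 above, and summed to 4387 CPM with PKCi and 5471 CPM in CON (1.25-fold lower, 95% interval 1.23 to 1.26). Tubb2a, Tubb2b and Tuba1a were 3.45-, 2.69- and 2.33-fold higher. The more abundant Tuba1b was 2.12-fold lower (768 CPM with PKCi and 1628 CPM in CON), Tubb4b 1.70-fold, Tubb6 1.54-fold and Tubb5 1.25-fold lower, and Tuba1c was 1.05-fold higher. Tubg1 had a log2 ratio of −0.58. Cdc20, the anaphase activator, was 2.90-fold lower (124 CPM with PKCi and 359 CPM in CON). Tubulin genes are close copies of each other, and their reads may be shared.

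Small heat shock proteins hold unfolded clients without using ATP. Of 9 genes 3 were compared. Hspb6 (HSP20), best known in muscle, was at 11.6 CPM with PKCi and 41.4 CPM in CON (187 and 666 counts, 3.56-fold lower, 95% interval 3.02 to 4.21). Cryab (alpha B-crystallin) had 14 counts with PKCi and 87 in CON (6.21-fold lower, 95% interval 3.51 to 11.8), and reached 1 CPM in the CON library alone. Its table span overlaps that of Hspb2 by 1030 bases on the other strand, and Hspb2 had 0 counts in both libraries. Hspb11, an intraflagellar transport protein, was level, at 8.59 CPM with PKCi and 8.51 CPM in CON. Hspb1 (HSP25), often abundant in epithelial tumours, was listed with 1 count with PKCi and 0 in CON, and Hspb8 with 0 in both. A count of 0 allows up to 0.187 CPM in the PKCi library and 0.186 CPM in CON (3 counts of the total).

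Of the heat shock factors themselves, Hsf1 was lower and Hsf2 was close to level. Hsf1, the main activator of the heat shock response, was at 62.5 CPM with PKCi and 80.7 CPM in CON (1.29-fold lower, 95% interval 1.19 to 1.40). Hsf2, a relative that forms mixed trimers with it, was at 30.2 CPM with PKCi and 30.0 CPM in CON. Some classical heat shock genes, picked here without a planned list and not a full set, did not share a direction. Hspa1b was higher, Dnajb1, Bag3 and Dnajb6 were within counting error, and Hsp90aa1, Hspd1, Hspe1 and Hsph1 were lower. Of 9 genes listed as HSF1 partners and heat shock genes outside the set 8 were compared. Of these, 5 were below 0, against 50.8% of all genes, and 3 above, with a median of −0.10. Those below 0 include Hspg2 (log2 ratio −0.20), which encodes a matrix proteoglycan and is neither an HSF1 partner nor a heat shock gene. The collagen chaperone gene Serpinh1 was 1.72-fold lower (15.4 CPM with PKCi and 26.5 CPM in CON) and Hikeshi, which carries HSP70 into the nucleus, 1.42-fold lower. The ubiquitin gene Ubb was 1.25-fold higher and the HSF-binding protein gene Hsbp1 1.16-fold higher.

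The 19 genes not compared add little RNA. In both libraries 9 of them had 0 counts: Cct8l1, Dnajb3, Dnajb7, Dnajb8, Dnajc5g, Dnajc6, Hspb2, Hspb3 and Hspb8. The other 10, Cct6b, Dnajb13, Dnajc5b, Hspa1a, Hspa1l, Hspa12a, Hspa12b, Hspb1, Hspb7 and Hspb9, had at most 6 counts with PKCi and at most 10 in CON. Several of these genes are known mainly from testis, muscle or neurons. Among the 73 compared, 13 had counting intervals of the ratio that spanned 1. The share of all genes with such intervals was not computed, and the intervals narrow as counts rise. The number therefore does not set the chaperone genes apart.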

How the data were processed

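Messenger RNA of 1 PKCi-treated and 1 untreated (CON) culture of CMT167R cells was sequenced, and libraries were grouped by the treatment in the labels. HISAT2 2.0.5 is named as a tool, and GRCm38 and mm10 as builds, per the submitters' processing notes. The program, strand setting and annotation used for counting were not given in the sources used here. Deposited by the authors were whole-number counts per gene, unnormalized, with gene names, spans, biotypes and lengths. The table's name speaks of FPKM, but its values behave as raw counts. Columns that could not be assigned to a sample numbered 0. Gene lengths, as deposited, served for TPM.

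Each count was scaled to a library total of 1000000 (CPM). Genes at 1 CPM or more in at least 1 library were compared by log2((PKCi + 1)/(CON + 1)). Folds in the text are plain CPM ratios with exact binomial 95% intervals. With 1 library per group no test was run, and called means at least 2-fold on the log2 scale. The calculation was tested on simulated data.

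The members and lists were chosen with earlier results of these data known. All HSP90, HSP70, HSP110, small HSP, chaperonin, CCT, BAG and HSF genes could be named. J protein genes were named at 1.5-fold or more, as the 6 most abundant or the 4 nearest level. Of other lists the 4 largest log2 ratios were named, and also every tubulin compared, Hspbap1, Hspg2 and Trap1. Further J protein genes (Dnaja3, Dnajb1, Dnajb12, Dnajb14, Dnajc4, Dnajc8, Dnajc14, Dnajc16, Dnajc18, Dnajc21, Dnajc22, Dnajc24, Dnajc25 and Dnajc30) were named after their values were seen. ER and mitochondrial assignments were made by hand. Promoter windows were RefSeq's, and the stretches shown were chosen for their elements after the values were seen. Alternatives were 2 pseudocounts, 2 filters, TMM (edgeR 4.0.16), median-of-ratios and TPM scaling, and protein-coding genes alone. Python 3.11.15, NumPy 2.4.6, pandas 2.3.3 and SciPy 1.17.1 were used.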

Additional observations from a re-analysis of the deposited data

How the results depend on the processing

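The 6 lower genes were past 2-fold under 7 of the 8 alternatives, and Cryab was not with a pseudocount of 5 CPM (log2 ratio −0.83). The 2 higher genes rested on low counts: with that pseudocount 0 were past 2-fold, and with a filter of 5 CPM only Dnajc28 was counted (1). Over all genes, a pseudocount of 5 CPM left 324 lower and 449 higher past 2-fold, and TPM scaling gave 985 lower and 1398 higher. The chaperone median ranged from −0.38 to −0.33 over the alternatives and the 7 CCT genes were below 0 in each. The summed level without Hsp90ab1, added after seeing the data, had a PKCi to CON ratio of 0.701, against 0.719 with it. Dnajc13, Hsf2 and Hspb11 changed sign between scalings, with log2 ratios between −0.02 and 0.02. No paired analysis was possible because each group has 1 library, and for the same reason no library could be left out. Counting intervals miss differences between cultures.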

Other observations

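Cct2 has tested neighbours on chromosome 10 that can be set beside its high level. Within 500 kb of it, 7 protein-coding genes including Cct2 reached 1 CPM. Per gene length Cct2 stood above 99.7% of the genes compared in the PKCi library and 99.8% in CON. Its nearest such neighbour, Frs2, a receptor adaptor 5.61 kb away, was at 86.3 TPM with PKCi and 74.4 TPM in CON. Yeats4, a histone reader, was at 282 TPM with PKCi and 320 TPM in CON. Cnot2, of the mRNA deadenylase complex, was at 187 TPM with PKCi and 190 TPM in CON. Rab3ip was at 120 TPM with PKCi and 168 TPM in CON, and Cpsf6 at 57.5 TPM with PKCi and 64.8 TPM in CON. Lyz2 was the lowest of these neighbours, at 7.72 TPM with PKCi and 20.4 TPM in CON. The median of all genes compared was 23.8 TPM with PKCi and 24.0 TPM in CON. Whether position bears on the level of Cct2 was not tested.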
